A study of Mus musculus with 9 samples.

Results

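The genes described here are 10 transcripts by which the integrated stress response is usually read, namely *Atf4*, *Ddit3*, *Trib3*, *Asns*, *Chac1*, *Ppp1r15a*, *Sesn2*, *Psat1*, *Xbp1* and *Herpud1*. They were taken as a list of names and found by Ensembl identifier among the 53801 genes of each count file, where 10 of 10 were present. RNA was sequenced from monocytes/macrophages of male C57BL/6J mice aged 9 weeks, sorted by FACS as CD11c-, Ly6G-, CD11b+ and CD45high. The 9 libraries form 3 groups of 3: sham blood and stroke blood, with 1 mouse behind each library, and stroke brain, with cells of 5 mice pooled in each library. Stroke was induced by permanently blocking the distal part of the left middle cerebral artery together with the left common carotid artery (dMCAO), and stroke samples were collected 5 days later, while the sources used here do not name the day for sham blood. Brain cells were freed by enzymatic dissociation and a Percoll gradient and blood cells by Ficoll, so tissue and handling cannot be told apart in any comparison of brain with blood, and the CD45high gate can hold activated microglia.

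In the integrated stress response, kinases that sense unfolded protein, amino acid shortage, heme shortage or viral RNA phosphorylate the translation factor eIF2, which slows most protein synthesis but lets the *Atf4* message be translated. ATF4 then induces genes of amino acid supply, its partner CHOP (encoded by *Ddit3*) and the brakes *Ppp1r15a* and *Trib3*. The unfolded protein response of the endoplasmic reticulum shares the kinase PERK with it and has separate arms through XBP1 and ATF6. Because ATF4 is set largely by translation and XBP1 by splicing, gene counts measure the amount of these messages and not the active factors.

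Promoter sequences are shown for 4 of the 10 genes, chosen because their messages were higher in every brain library than in every blood library and because a response element was found in the window searched. They are the 250 bases before the RefSeq transcript start (GRCm38.p6), on the gene's own strand from 5′ to 3′, with the motif matches in capitals. *Ppp1r15a* lies on the minus strand (chr7:45526269-45526518) and holds a cyclic AMP response element palindrome 12 bases before the start. *Ddit3* lies on the plus strand (chr10:127290543-127290792) and holds an AP-1 element 242 bases before the start. *Asns* lies on the minus strand (chr6:7693210-7693459) and holds the core of the ATF4 and C/EBP composite element 23 bases before the start. *Herpud1* lies on the plus strand (chr8:94386179-94386428) and holds that core on the opposite strand 112 bases before the start, and the endoplasmic reticulum stress element II 52 bases before it.
Ppp1r15a: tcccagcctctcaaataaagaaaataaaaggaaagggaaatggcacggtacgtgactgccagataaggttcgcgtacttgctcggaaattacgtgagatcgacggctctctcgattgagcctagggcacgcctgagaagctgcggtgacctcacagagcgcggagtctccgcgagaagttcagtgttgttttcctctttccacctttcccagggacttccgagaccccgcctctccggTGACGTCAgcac
Ddit3: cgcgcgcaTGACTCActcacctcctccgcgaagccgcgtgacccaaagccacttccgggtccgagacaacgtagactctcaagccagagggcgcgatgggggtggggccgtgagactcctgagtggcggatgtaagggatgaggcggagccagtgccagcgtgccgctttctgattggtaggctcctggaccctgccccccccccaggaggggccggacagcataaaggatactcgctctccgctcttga
Asns: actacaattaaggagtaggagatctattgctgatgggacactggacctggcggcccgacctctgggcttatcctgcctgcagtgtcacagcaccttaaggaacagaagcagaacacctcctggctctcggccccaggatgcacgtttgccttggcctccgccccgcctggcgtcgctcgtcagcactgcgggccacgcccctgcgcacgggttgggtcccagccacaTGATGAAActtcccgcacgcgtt
Herpud1: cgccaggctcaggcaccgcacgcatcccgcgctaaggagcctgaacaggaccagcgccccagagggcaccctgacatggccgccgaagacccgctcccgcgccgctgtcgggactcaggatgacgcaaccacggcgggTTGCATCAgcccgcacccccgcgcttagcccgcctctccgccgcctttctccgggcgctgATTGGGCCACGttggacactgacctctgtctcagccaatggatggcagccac

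The motifs were searched on both strands of windows from 250 bases before to 50 bases after the start. The composite core TGATGNAA was found in 3.97% of all 32851 windows and in 4 of the 11 windows of the 10 genes, those of *Asns*, *Herpud1*, *Chac1* and *Trib3*. In *Chac1* the match began 193 bases before the start, and in *Trib3* 14 bases after it. The palindrome TGACGTCA was found in 1.79% of all windows, the AP-1 element TGACTCA in 5.20% and the endoplasmic reticulum stress element II, the longer run of capitals in *Herpud1*, in 0.0365%. The first endoplasmic reticulum stress element, which ends in the same letters, CCACG, was found in 0.119% of all windows and in 0 of these 11. The windows of *Atf4*, *Sesn2* and *Xbp1* and the 2 windows of *Psat1* held none of these motifs, which says only that the letters are absent from these windows.

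Total counts were between 18475118 and 22623578 per library. Levels are given as counts per 1000000 counts of the library (CPM). A gene was called when, in edgeR's quasi-likelihood test, its log2 fold change lay beyond 1 in either direction with an adjusted p under 0.05. The ± beside a log2 fold change is its standard error, and adjusted p values are those of this test over all genes of the comparison unless another tool is named. Brain replicate 1 stood apart within its group in several of the genes below, and sham blood replicate 1 held 1223 CPM of summed erythroid marker RNA against 30420 and 34180 in the other sham libraries. In the brain, 10 of 11 microglial markers were called higher than in stroke blood, where 13.1% of all genes tested were. In stroke blood *Siglech*, *Sall1* and *Slc2a5* had 0 counts in each library, *Olfml3* had at most 3, and *Fcrls* had 0, 10 and 11. These genes passed the filter on low counts only through the brain libraries and could only be called higher. The summed level of the 11 markers was 1800, 3050 and 5132 CPM in brain replicates 1, 2 and 3, from 550.3 to 752.0 CPM in stroke blood and from 437.2 to 639.2 CPM in sham blood. The summed level of 10 monocyte and macrophage markers was from 49680 to 53800 CPM in the brain, from 98610 to 109600 CPM in stroke blood and from 89700 to 125700 CPM in sham blood, with none at 0. *Lyz2*, the lysozyme of myeloid cells, made up most of these sums, with 38690, 41180 and 42810 CPM in the brain, 89570, 98420 and 88720 CPM in stroke blood and 115600, 94200 and 79520 CPM in sham blood. Without it, a split chosen after its values were seen, the other 9 markers summed to 10620 to 11000 CPM in the brain, 9743 to 11150 CPM in stroke blood and 9421 to 10180 CPM in sham blood. These 9 markers did not move together. Mean levels in the brain and in stroke blood were 1842 and 105.3 CPM for *Cd14* and 1609 and 975.9 for *Cd68*. For *Ly6c2* they were 893.5 and 2498 CPM, and for *Ccr2* 1264 and 1981. Of all 10 markers 1 was called higher than in stroke blood and 2 lower, where 13.1% and 7.86% of all genes were. For every level given here, fewer cells of a type and less RNA per cell cannot be told apart in these bulk samples.

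To learn how the stress response messages differed between cells in the postischemic brain and cells that remained in the blood, the brain libraries were compared with stroke blood. *Ppp1r15a*, *Asns*, *Ddit3* and *Psat1* were upregulated in the brain by 2.02- to 6.84-fold, *Atf4* and *Herpud1* rose by less than the fold threshold, and *Xbp1* fell. Of the 10 genes, 9 passed the filter on low counts and *Chac1* did not. Among those 9, 4 were called higher and 0 lower, where 21.0% of the 13189 genes tested were called, 13.1% higher and 7.86% lower. By adjusted p alone 6 were higher and 1 was lower, where 30.6% of all genes passed, 17.5% higher and 13.1% lower. The 3 brain libraries lay above all 6 blood libraries for 6 of the 9 genes and below them for 1, which was the case for 22.6% and 9.65% of all genes tested. The median log2 fold change of the 9 genes was 1.01, that of all genes 0.06. With library size in place of TMM factors, the median of all genes moved to 0.22 and the share of calls that were higher from 62.6% to 72.2%, while the same 4 genes were called.

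**Figure D1:**
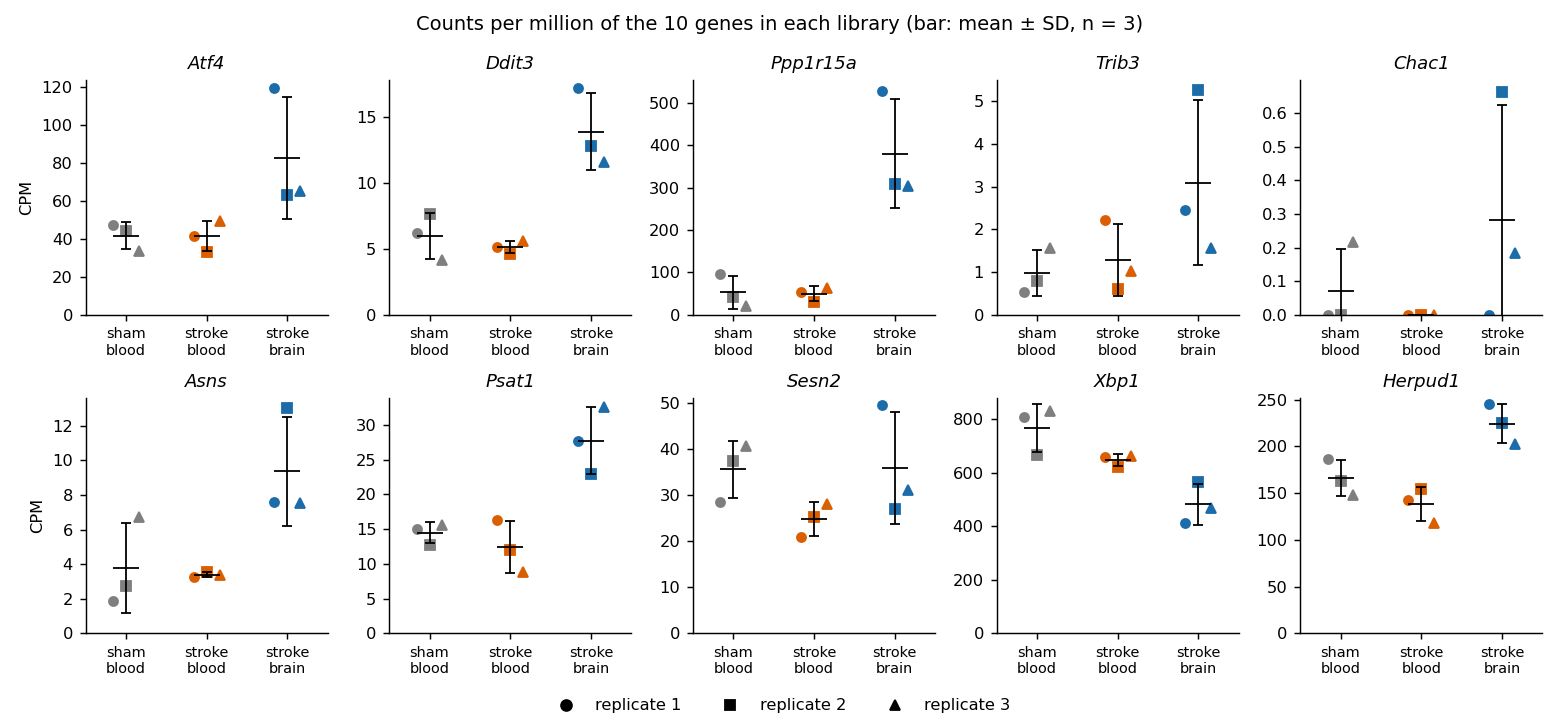
CPM of the 10 genes in each library (y axes, linear and starting at 0, 1 scale per gene) in sham blood, stroke blood and stroke brain (x axis). Points are libraries with the marker giving the replicate number, and black bars are the mean ± SD of 3 libraries. The brain points lie above all 6 blood points for *Atf4*, *Ddit3*, *Ppp1r15a*, *Asns*, *Psat1* and *Herpud1*, below them for *Xbp1*, and overlap them for *Trib3*, *Chac1* and *Sesn2*.

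*Atf4* encodes the transcription factor at the centre of the response. Its annotated exons, merged over all transcripts, cover 1 unbroken stretch of 2358 bases on chromosome 15 (80255184 to 80257541, plus strand, GRCm38). This merged length can exceed that of any single message. Brain replicates 1, 2 and 3 had 119.7, 62.99 and 65.56 CPM. Stroke blood had 41.69, 33.39 and 49.27 CPM, and sham blood 47.28, 44.12 and 33.83 CPM. Every brain library exceeded every blood library, but brain replicate 1 was 1.86 times the mean of the other brain libraries. Against stroke blood the log2 fold change was 0.84 ± 0.27 (adjusted p = 0.0440), below the fold threshold. Without brain replicate 1 it was 0.49 ± 0.21 (adjusted p = 0.112), and over the 12 alternative fits its adjusted p ranged from 0.0175, by DESeq2, to 0.158. In the 6 fits that left out a library its adjusted p was below 0.05 in 1.

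*Ddit3* encodes CHOP, a C/EBP family factor linked to cell death under prolonged stress, and lies on chromosome 10 (127290774 to 127296288, plus strand). The brain had 17.17, 12.82 and 11.61 CPM in replicates 1 to 3. Stroke blood had 5.163, 4.638 and 5.559 CPM and sham blood 6.178, 7.659 and 4.168 CPM. The lowest brain library was above the highest blood library. *Ddit3* was called higher than in stroke blood, with a log2 fold change of 1.28 ± 0.28 (adjusted p = 0.00757). Its adjusted p stayed below the threshold in all 12 alternative fits, from 0.000356, by DESeq2, to 0.0355. Its exons share 68 bases with *Mars* on the opposite strand, and since the strand setting of the counting is not given in the sources used here, reads in that stretch cannot be assigned with certainty.

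*Ppp1r15a* encodes GADD34, the inducible subunit that brings phosphatase to eIF2 and so ends the response, and lies on chromosome 7 (45522916 to 45526268, minus strand) downstream of the promoter shown above. The brain libraries had 528.3, 307.2 and 304.6 CPM. Stroke blood had 54.09, 30.75 and 64.11 CPM, and sham blood 96.75, 42.62 and 20.57 CPM. The gap between brain and blood was wide, and the sham libraries spread over a broader range than those of stroke blood. The increase over stroke blood, 2.77 ± 0.32 on the log2 scale or 6.84-fold (adjusted p = 0.000342), was the largest among the 9 genes tested. Its adjusted p stayed below the threshold in all 12 alternative fits. *Ppp1r15a* shares 12 exon bases with *Tulp2* on the opposite strand. *Ppp1r15b*, its constitutive paralogue, had 115.2 ± 26.6 CPM in the brain, 127.2 ± 19.3 in stroke blood and 147.6 ± 8.78 in sham blood (SD, n = 3), and did not pass the test against stroke blood (log2 fold change -0.30 ± 0.19, adjusted p = 0.275).

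*Trib3* encodes a pseudokinase that binds ATF4 and limits its activity. The brain libraries had 2.452, 5.260 and 1.573 CPM, stroke blood 2.219, 0.6029 and 1.025 CPM, and sham blood 0.5351, 0.7988 and 1.570 CPM. Brain replicate 2 was high, and brain replicate 3 lay below the first stroke blood library. *Trib3* was not called against stroke blood (log2 fold change 1.12 ± 0.64, adjusted p = 0.214).

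*Asns* encodes asparagine synthetase, and *Psat1* the aminotransferase of the serine synthesis pathway, both enzymes that ATF4 is known to induce. *Asns*, on chromosome 6 (7675169 to 7693254, minus strand), had 7.570, 13 and 7.542 CPM in the brain, 3.233, 3.571 and 3.400 CPM in stroke blood and 1.849, 2.725 and 6.712 CPM in sham blood. The stroke blood libraries were close together, whereas sham blood replicate 3 came near the lowest brain library. *Asns* was called higher than in stroke blood by 1.31 ± 0.34 on the log2 scale (adjusted p = 0.0174), a call that held in 4 of the 6 fits that left out a library. *Psat1*, on chromosome 19 (15904678 to 15947337, minus strand), had 27.67, 22.98 and 32.66 CPM in the brain, 16.31, 12.06 and 8.851 CPM in stroke blood and 15.03, 12.78 and 15.64 CPM in sham blood. All brain libraries were above all blood libraries, and the log2 fold change of 1.01 ± 0.26 (adjusted p = 0.0179) passed the fold threshold narrowly. Its adjusted p was below 0.05 in 3 of the 6 fits without a library. A fit of all 9 libraries called *Ddit3* and *Ppp1r15a* and neither of these enzymes.

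*Chac1*, which encodes an enzyme that degrades glutathione, was near the limit of detection. It had 0, 15 and 4 counts in brain replicates 1 to 3, 0 counts in each stroke blood library and 0, 0 and 4 counts in sham blood, where 3 counts, taken as the floor, corresponded to between 0.1326 and 0.1624 CPM. No difference was detectable at this depth, and a message below the floor cannot be called absent. *Sesn2*, which encodes a stress sensor that restrains mTORC1, had 49.58, 26.87 and 31.18 CPM in the brain, 20.94, 25.28 and 28.12 CPM in stroke blood and 28.60, 37.50 and 40.65 CPM in sham blood. Brain replicate 1 was the highest of the 9 libraries, and the other brain libraries lay within the range of blood. Its log2 fold change against stroke blood was 0.37 ± 0.26 (adjusted p = 0.301).

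*Xbp1* and *Herpud1* belong to the endoplasmic reticulum branch. *Xbp1* encodes the factor that IRE1 activates by splicing, a form that gene counts do not separate. Per length of merged exon it had the highest mean of the 10 in each group, in the brain ahead of *Ppp1r15a* by less than the SD. *Xbp1*, on chromosome 11 (5520659 to 5525893, plus strand), had 413.1, 565.7 and 468.6 CPM in the brain, 659.8, 621.9 and 663.3 CPM in stroke blood and 806.8, 666.5 and 829.5 CPM in sham blood. Every brain library was below every blood library. *Xbp1* fell by 0.58 ± 0.16 on the log2 scale against stroke blood (adjusted p = 0.0236), with 0.0665 under library size normalization and 0.0537 without brain replicate 1. In the 6 fits that left out a library its adjusted p ranged from 0.0258 to 0.0903 and was below 0.05 in 2, the highest being without brain replicate 3. *Xbp1* is also a marker of plasma cells and plasmacytoid dendritic cells, and the summed level of 10 B and plasma cell markers was from 524.8 to 794.1 CPM in the brain, 599.0 to 748.4 in stroke blood and 684.4 to 995.8 in sham blood. That of 7 plasmacytoid dendritic cell markers was from 228.7 to 283.5 CPM in the brain, 203.8 to 265.0 in stroke blood and 192.8 to 268.7 in sham blood. *Ighm* made up most of the first sum, with 413.2 to 639.8 CPM in the brain and 514.9 to 661.4 in stroke blood. *Bst2* and *Tcf4* made up most of the second. Of the first list 1 of 8 tested was called higher against stroke blood and 0 lower, and of the second 1 of 6 higher and 1 lower. Over all genes 13.1% were called higher and 7.86% lower. The gene called in the first list was *Sdc1*, with a mean of 50.15 CPM in the brain and 4.588 in stroke blood. In that list 6 of the 8 had a log2 fold change below 0. Against sham blood 1 of 9 in the first list was called higher and 4 lower, and 0 of 6 in the second higher and 1 lower. Over all genes 9.75% were called higher and 3.67% lower in that comparison. The part of these cells in the result was not tested.

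*Herpud1*, an endoplasmic reticulum protein of the degradation pathway and a target of both ATF4 and ATF6, had 244.7, 224.7 and 202.8 CPM in the brain, 142.3, 153.9 and 118.5 CPM in stroke blood and 186.3, 162.4 and 148.1 CPM in sham blood. All brain libraries were above all blood libraries, opposite to *Xbp1*. The log2 fold change against stroke blood was 0.54 ± 0.15 (adjusted p = 0.0251), and 0.49 ± 0.17 without brain replicate 1 (adjusted p = 0.0530). In the 6 fits that left out a library its adjusted p ranged from 0.0340 to 0.0811 and was below 0.05 in 2.

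Per 1000 bases of merged exon and 1000000 counts (FPKM), the brain order was *Xbp1* with 148.5 ± 23.8, *Ppp1r15a* with 129.4 ± 43.7, *Herpud1* with 96.0 ± 8.99, *Atf4* with 35.1 ± 13.6 and *Sesn2* with 10.3 ± 3.47 (SD, n = 3). Below these came *Ddit3* with 8.10 ± 1.71, *Psat1* with 6.53 ± 1.14, *Asns* with 3.43 ± 1.15, *Trib3* with 1.46 ± 0.906 and *Chac1* with 0.173 ± 0.209. In stroke blood *Xbp1* with 199.6 ± 7.07 FPKM and *Herpud1* with 59.3 ± 7.73 led, ahead of *Atf4* with 17.6 ± 3.37, *Ppp1r15a* with 16.9 ± 5.83 and *Sesn2* with 7.13 ± 1.04. In sham blood the leaders were *Xbp1* with 236.3 ± 27.2 FPKM and *Herpud1* with 71.0 ± 8.27, followed by *Ppp1r15a* with 18.2 ± 13.4, *Atf4* with 17.7 ± 2.98 and *Sesn2* with 10.2 ± 1.80. The other 5 genes were at or below 2.99 FPKM in stroke blood and 3.50 in sham blood. *Ppp1r15a* and *Atf4* differed by less than their SD in either blood group, while in the brain *Ppp1r15a* stood above *Atf4*. Of the neighbours in the brain order, *Xbp1* and *Ppp1r15a*, *Ppp1r15a* and *Herpud1*, *Sesn2* and *Ddit3*, and *Ddit3* and *Psat1* differed by less than the larger SD of the pair.

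The 10 genes did not share their highest brain library. Replicate 1 was highest for *Atf4*, *Ddit3*, *Ppp1r15a*, *Sesn2* and *Herpud1*, replicate 2 for *Trib3*, *Asns*, *Chac1* and *Xbp1*, and replicate 3 for *Psat1*. Replicate 1 was 1.73 times the mean of the other brain libraries for *Ppp1r15a*, 1.71 times for *Sesn2* and 0.737 times for *Asns*. It also had the lowest summed microglial markers of the 3, and the part of cell composition in these differences was not tested.

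**Figure D2:**
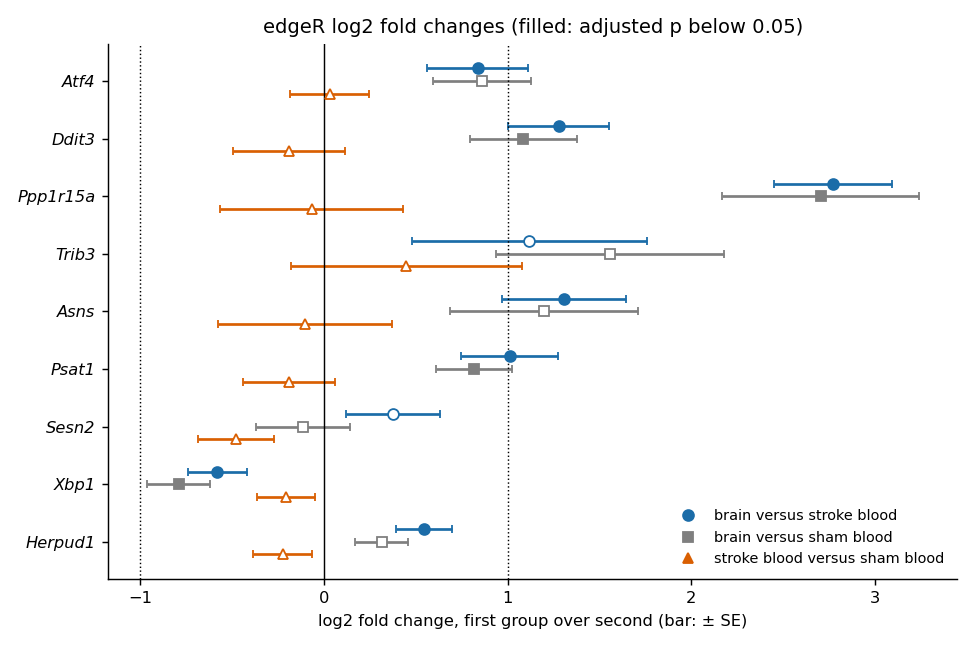
edgeR log2 fold changes with their standard errors (x axis) of the 9 genes tested (y axis) in 3 comparisons, each first group over second. Filled symbols have an adjusted p below 0.05, and dotted lines mark a log2 fold change of 1 in either direction. *Ppp1r15a* lies farthest to the right in both comparisons of the brain, *Xbp1* lies left of 0 in all 3, and no symbol of stroke blood versus sham blood is filled.

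To ask whether the blood cells already differed after stroke, stroke blood was compared with sham blood. None of the 10 genes was called, and 7 of the 9 tested had a log2 fold change below 0, with a median of -0.19 against -0.03 for all genes. edgeR called 1 of 12664 genes tested (0.00790%), *Serpinb10*, and DESeq2 called 133, with none of the 10 among them. At an unadjusted p below 0.05 edgeR found 1 of the 9, *Sesn2* (log2 fold change -0.48 ± 0.21, adjusted p = 0.391), where 12.5% of all genes met that level. All stroke blood libraries were below all sham libraries for 2 of the 9, *Sesn2* and *Xbp1*, and above them for 0, where 10.5% of all genes lay below and 8.23% above. *Atf4* had a log2 fold change of 0.03 ± 0.22, *Ddit3* of -0.19 ± 0.31, *Herpud1* of -0.23 ± 0.16 and *Xbp1* of -0.21 ± 0.16. For *Ppp1r15a* it was -0.07 ± 0.50, and 0.70 ± 0.37 (adjusted p = 0.405) without sham blood replicate 1, which had the highest *Ppp1r15a* and the highest summed immediate early genes of the 6 blood libraries, 6459 CPM against 2730 to 5183. Differences of this size were not detectable at these standard errors.

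Against sham blood, the brain showed an increase of *Ppp1r15a* by 2.70 ± 0.54 on the log2 scale (adjusted p = 0.0131) and of *Ddit3* by 1.08 ± 0.29 (adjusted p = 0.0372). These 2 were the genes called, both higher, where 13.4% of the 13020 genes tested were called, 9.75% higher and 3.67% lower. By adjusted p alone 3 were higher and 1 lower, where 19.8% of all genes passed, 12.1% higher and 7.68% lower. This added *Psat1* at 0.82 ± 0.21 (adjusted p = 0.0291) and *Xbp1* at -0.79 ± 0.17 (adjusted p = 0.0181). *Atf4* had nearly the log2 fold change it had against stroke blood, 0.86 ± 0.27, with an adjusted p of 0.0596. *Asns* was at 1.20 ± 0.51 (adjusted p = 0.141), and without sham blood replicate 3, which held the highest *Asns* of the blood libraries, at 1.92 ± 0.42 (adjusted p = 0.0376). *Trib3* was at 1.56 ± 0.62 (adjusted p = 0.119), *Herpud1* at 0.31 ± 0.14 (adjusted p = 0.169) and *Sesn2* at -0.11 ± 0.26 (adjusted p = 0.786). The 2 comparisons share the brain libraries and are not independent. Without sham blood replicate 2 none of the 10 was called by edgeR (*Ppp1r15a*, adjusted p = 0.0544), and *Ddit3* had an adjusted p above 0.05 in all 6 fits that left out a library, from 0.0564 to 0.0998.

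Around the 10 genes, lists of the pathway were read in the same fits. Of 18 genes for the eIF2 kinases, eIF2, its exchange factor eIF2B and the phosphatase, none was called in the brain against stroke blood. Their median log2 fold change was -0.06 and 5 had an unadjusted p below 0.05 by edgeR, where 42.2% of all genes did, while DESeq2 called 1. The kinase genes *Eif2ak1* (heme), *Eif2ak2* (double-stranded RNA), *Eif2ak3* (PERK, unfolded protein) and *Eif2ak4* (GCN2, amino acids) had log2 fold changes of -0.06 ± 0.17, -0.47 ± 0.30, 0.28 ± 0.23 and 1.03 ± 0.39. The lowest adjusted p was that of *Eif2ak4*, 0.0733. Brain replicate 1 stood apart for this gene, with 17.11 CPM against 8.487 and 6.292 in replicates 2 and 3. Its sham blood libraries ranged from 5.254 to 9.147 CPM. *Eif2s1*, the subunit of eIF2 that is phosphorylated, was at 0.67 ± 0.21 (adjusted p = 0.0418), below the fold threshold.

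Among 12 transcription factors that pair with ATF4 or respond to stress, 4 were called higher in the brain than in stroke blood and 1 lower. Over all genes tested, 13.1% were called higher and 7.86% lower. The list median was -0.03, that of all genes 0.06. *Cebpb*, a C/EBP partner of ATF4, had 1323 ± 320.6 CPM in the brain against 35.0 ± 14.6 in stroke blood and 26.6 ± 8.19 in sham blood (log2 fold change against stroke blood 5.08 ± 0.37, adjusted p = 3.22e-05). *Jdp2*, an AP-1 repressor, rose by 4.51 ± 0.30 (adjusted p = 2.28e-05), and *Atf3*, a stress-induced repressor, rose by 3.33 ± 0.17 (adjusted p = 4.85e-06) to 966.7, 902.1 and 887.8 CPM. *Jund* rose by 1.92 ± 0.32, and *Cebpd* fell by 1.36 ± 0.22. *Cebpg*, another partner of ATF4, had 58.4 ± 1.04 CPM in the brain and 63.4 ± 4.48 in stroke blood (log2 fold change -0.27 ± 0.15, adjusted p = 0.199). Of 11 tested against sham blood, 3 were called higher and 2 lower, where 9.75% and 3.67% of all genes were.

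Of 38 listed targets of ATF4 in amino acid supply, transport and other roles, 28 were tested against stroke blood. Of these 28, 12 were called higher and 0 lower, where 13.1% of all genes were called higher and 7.86% lower. Among the 12, *Vegfa* and *Gdf15* passed the filter on low counts only through the brain libraries, here and against sham blood. These genes could therefore only be called higher. By adjusted p alone 13 of the 28 were higher and 3 lower, where 17.5% and 13.1% of all genes were. The median log2 fold change of the list was 0.73. Against sham blood 9 of 28 were called higher and 0 lower, where 9.75% of all genes were called higher and 3.67% lower. In the serine pathway *Phgdh*, the first enzyme, had 27.51, 35.18 and 41.69 CPM in the brain against 5.742, 3.061 and 3.346 CPM in stroke blood (log2 fold change 2.95 ± 0.31, adjusted p = 0.000214). *Shmt2*, which turns serine to glycine in mitochondria, rose by 0.76 ± 0.19 (adjusted p = 0.0143), below the fold threshold. *Psph*, the last enzyme of serine synthesis, was at -0.25 ± 0.24 (adjusted p = 0.457). So of the 3 enzymes of serine synthesis, *Phgdh* and *Psat1* were called and *Psph* was not. *Aldh18a1*, of proline synthesis, rose by 1.43 ± 0.21 and *Got1*, the cytosolic aspartate aminotransferase, by 3.76 ± 0.30.

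The transporter genes split as well. *Slc3a2*, the heavy chain shared by several amino acid transporters, had 370.5, 379.7 and 343.7 CPM in the brain against 55.24, 68.64 and 68.05 CPM in stroke blood (log2 fold change 2.36 ± 0.16, adjusted p = 2.32e-05). Its partner *Slc7a11*, of cystine import, rose by 1.34 ± 0.33 (adjusted p = 0.0140), whereas its partner *Slc7a5*, of leucine import, was at 0.70 ± 0.32 (adjusted p = 0.124). *Gdf15*, a stress-induced secreted factor, had 324, 418 and 318 counts in the brain and 2, 0 and 4 counts in stroke blood. *Vegfa*, the endothelial growth factor, had 0 counts in each stroke blood library and 242.0, 16.71 and 15.59 CPM in the brain, so that its mean was at least 615.3-fold higher against 3 counts per library, with most of that mean from replicate 1. *Cdkn1a*, *Nfil3*, *Pmaip1*, *Ero1l* and *Sqstm1* made up the rest of the 12, with log2 fold changes from 1.02 to 2.93. Several of these genes also answer to factors other than ATF4.

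Of 20 cytosolic aminoacyl tRNA synthetases, another group that ATF4 is known to induce, *Aars* (1.35 ± 0.23, adjusted p = 0.00271) and *Cars* (1.16 ± 0.20, adjusted p = 0.00285) were called higher against stroke blood and 0 lower. Over all genes 13.1% were called higher and 7.86% lower in that comparison. The list median was 0.39, and 0 were called against sham blood by edgeR, where 6 had an unadjusted p below 0.05 (34.3% of all genes did) and the other fits with the same fold threshold called 0 as well. Of 34 genes of the ATF6 and XBP1 arms, 33 were tested, and *Hspa5*, the chaperone BiP, was called higher (1.45 ± 0.21, adjusted p = 0.00120), while *Sec61b*, of the translocon, was called lower (-1.11 ± 0.19, adjusted p = 0.00279). By adjusted p alone 10 were higher and 1 lower, where 17.5% and 13.1% of all genes were, with a list median of 0.20. *Dnajb9*, a classical target of spliced XBP1, was at 0.28 ± 0.22 (adjusted p = 0.354). *Hspa5* had 1956, 1753 and 1608 CPM in the brain, 688.5, 674.0 and 395.9 CPM in stroke blood and 1059, 756.3 and 1077 CPM in sham blood. The stroke blood levels were the lowest of the 3 groups, so the comparison with sham blood gave a smaller log2 fold change, 0.75 ± 0.22 (adjusted p = 0.0245). In stroke blood against sham blood none of these 5 lists had a call by edgeR, with 1 to 9 genes a list at an unadjusted p below 0.05, and DESeq2 called 1 of the transcription factors. In the list of the ATF6 and XBP1 arms 25 of 33 genes had a log2 fold change below 0. Of these 33, 9 had an unadjusted p below 0.05 by edgeR, where 12.5% of all genes did.

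**Figure D3:**
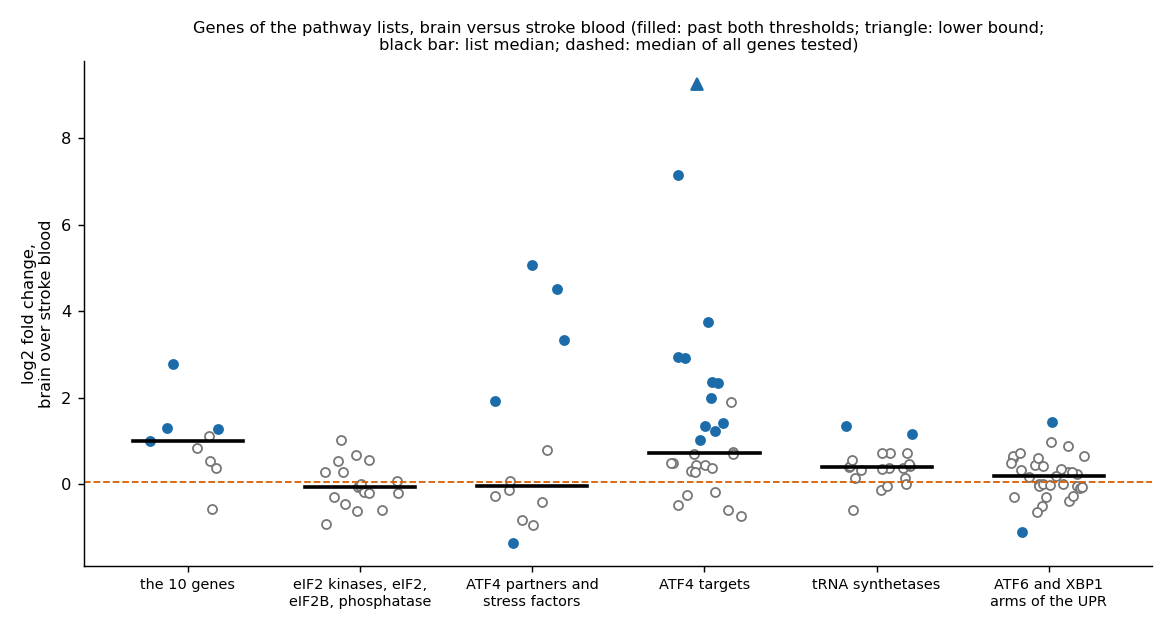
edgeR log2 fold changes of brain over stroke blood (y axis) for the genes tested in each list (x axis); filled points passed both thresholds, the triangle is the lower bound for *Vegfa*, and black bars are list medians. The eIF2 list holds no filled point, whereas 12 points of the ATF4 targets are filled, all above 0. Among these 12, *Vegfa* and *Gdf15* passed the filter on low counts only through the brain libraries. The dashed line is the median of all genes, 0.06.

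**Figure D4:**
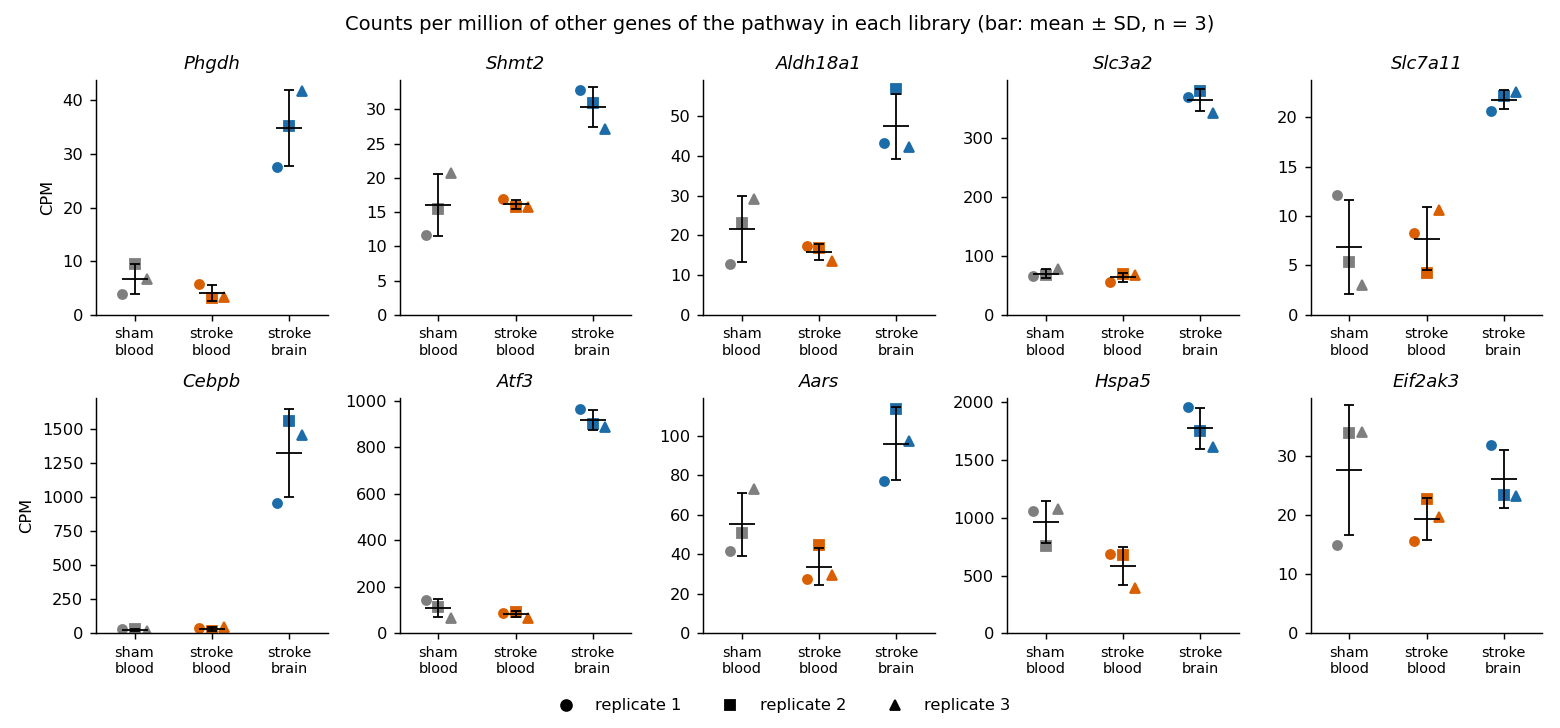
CPM in each library (y axes, linear and starting at 0) for 10 other genes of the pathway in the 3 groups (x axis), with markers for replicate numbers and the mean ± SD of 3 libraries. The brain libraries lie above all 6 blood libraries except for *Eif2ak3*, and *Slc3a2* in the brain lies between 343.7 and 379.7 CPM.

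Messages that rise when cells are handled moved with the brain as well. Of 14 immediate early and heat shock genes, 11 were called higher in the brain than in stroke blood and 0 lower, where 13.1% and 7.86% of all genes were. The list had a median log2 fold change of 2.19. Its summed level was from 16830 to 18690 CPM in the brain against 4095 to 5183 in stroke blood. *Atf3* is in this list as well as in that of the transcription factors. Summed neutrophil markers were from 887.5 to 1465 CPM in the brain and 437.5 to 773.6 in stroke blood, dendritic cell markers from 748.4 to 1020 and 99.9 to 230.9, T and NK cell markers from 643.1 to 1266 and 270.1 to 820.7, platelet markers from 36.9 to 82.9 and 298.3 to 386.1, and erythroid markers from 4.16 to 14.5 and 13800 to 18460. In sham blood replicates 1, 2 and 3 the neutrophil sum was 747.1, 936.4 and 2966 CPM. The neutrophil marker *Mmp8* went the other way, with a mean of 136.2 CPM in the brain and 424.6 in stroke blood. Summed neural and vascular markers were from 180.9 to 317.9 CPM in the brain and 231.8 to 356.1 in stroke blood, with *Syt1*, *Rbfox3*, *Mog* and *Cldn5* at 0 in the brain. *Mbp* made up most of these sums, with 190.7, 141.8 and 124.2 CPM in the brain and 247.8, 320.8 and 185.1 in stroke blood. The sums therefore say little about the other markers of the list. Within that list *Ttr*, which encodes the transthyretin of the choroid plexus, had 93.83, 14.76 and 43.68 CPM in brain replicates 1 to 3 and 0 in all 6 blood libraries, at least 341.6-fold higher than in stroke blood against 3 counts per library. *Slc1a2*, which encodes an astrocyte glutamate transporter, had 0.7997, 0.8398 and 0.5089 CPM in the brain and at most 0.1079 CPM in stroke blood. The part of handling, microglia and these other cells in the differences of the stress response genes was not tested.

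The genes most like 5 of the 10 were found by the mean absolute difference of centred log2(CPM + 1) values over the 9 libraries, among genes with a mean of at least 10 CPM. For *Atf4* these included *Runx1* at 0.11 and *Arih1* at 0.13. For *Ddit3* they were *Zc3h7a*, *Opa3* and *Nktr*, at 0.12 to 0.13, and for *Asns* *Socs3*, *Tlr1* and *Hdac4*, at 0.18 to 0.19. For *Xbp1*, *Dhrs7*, *Wdr92* and *Smim11* differed by 0.09 to 0.10, and no gene came closer to *Trib3* than *Rnh1* at 0.27, followed by *Shmt2* and *Tubg1* at 0.28. The likeness is a description over libraries that share depth and group.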

How the data were processed

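Paired-end reads of SMART-Seq HT libraries were mapped by the authors with HISAT2 (GRCm38), and HTSeq gave the deposited raw counts, which carry no normalization. Versions, the annotation release and the strand setting are not given in the sources used here. Symbols and exon lengths came from GENCODE M21, which held 53620 of the 53801 identifiers, and promoters from RefSeq (GRCm38.p6), which held all 10 genes. Where a symbol had 2 identifiers (*Ddit3*, *Aldoa*), the one with the longer exons was used, and the second *Ddit3* identifier had 0 counts. The 2 *Ddit3* identifiers share 105 exon bases on the same strand, and how reads in that stretch were counted was not tested. *Psat1* has a copy, *Gm12611*, of 91.0% identity over 1056 bases, which had 0 counts. Whether reads of *Psat1* and this copy were mixed was not tested.

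Groups followed the tissue and surgery in the labels, with the replicate numbers of the labels. Each comparison was fitted on its 2 groups with edgeR 4.0.16 in R 4.3.3 (TMM, default filter on low counts, quasi-likelihood test, Benjamini-Hochberg adjustment over all genes tested). The standard error is the log2 fold change over the square root of F. CPM and FPKM use library totals. Sham and stroke blood libraries came from separate mice and brain libraries from separate pools; with 3 libraries against 3, the smallest two-sided p of an exact permutation test is 0.1. On data simulated for brain versus stroke blood (12845 genes, 200 changed by a log2 fold of 2), 143 were called, none with the wrong sign, with 8 false calls. Alternatives were DESeq2 1.42.0, no filter, RLE, library size only, all 9 libraries in 1 fit, the replicate number as a block, no fold change threshold and the omission of each library. The 10 genes and all lists were chosen with earlier results of these data known. All 10 genes are named, with genes of the lists that were called (up to 8 a list), examples of other lists by role chosen after their values were seen (among them *Eif2ak1* to *Eif2ak4*, *Eif2s1*, *Cebpg*, *Shmt2*, *Psph*, *Slc7a5*, *Dnajb9*, *Serpinb10* and the called genes *Aldh18a1*, *Slc7a11*, *Ero1l* and *Sqstm1*), and for 5 genes the 3 most alike, except for 1 gene that is not reported here. Tables and plots used Python 3.11.15, pandas 2.3.3, numpy 2.4.6 and matplotlib 3.10.9. Without molecular identifiers, the 3-count floor reflects counting error alone.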

Additional observations from a re-analysis of the deposited data

How the results depend on the processing

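Among the 10 genes, the count called in the brain against stroke blood stayed at 4 under DESeq2, no filter, library size only and the replicate block, and was 3 with RLE, 2 in a fit of all 9 libraries, 7 with no fold change threshold and 3 to 4 with a library left out. Against sham blood it was 2 in the main setting, 4 with no fold change threshold and 0 to 2 with a library left out. In stroke blood against sham blood it was 0 in every setting run. With no fold change threshold the brain against stroke blood had 3 calls in the eIF2 list, 8 among the transcription factors, 6 synthetases and 11 genes of the ATF6 and XBP1 arms, and against sham blood 3 synthetases and 2 genes of those arms. Without that threshold 30.6% of all genes were called against stroke blood and 19.8% against sham blood. The eIF2 list had 1 call against stroke blood under DESeq2 and under library size only, and 0 to 1 with a library left out; the synthetases had 1 to 2 and the ATF6 and XBP1 arms 1 to 4 (0 to 2 against sham blood). Over all genes, stroke blood against sham blood had 133 calls under DESeq2, 160 with no filter and 0 to 16 with a library left out, the 16 without sham blood replicate 1; the list of transcription factors had 1 under DESeq2. Over all genes the brain against sham blood had 1146 to 1883 calls with a library left out, and the median log2 fold change moved from 0.01 to 0.13 with library size only.

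Signs turned only for values that were not called. In stroke blood against sham blood, *Atf4* was at -0.011 with library size only, and with a library left out *Atf4* ranged from -0.14 to 0.15, *Trib3* from -0.22 to 0.97, *Ddit3* from -0.40 to 0.004, *Ppp1r15a* from -0.46 to 0.70 and *Asns* from -0.43 to 0.61. In the brain against sham blood *Sesn2* was at 0.013 with library size only and from -0.40 to 0.048 with a library left out. The replicate numbers did not pair the libraries (correlations of same-numbered deviations from -0.07 to 0.07); with them as a block 2634 genes were called in the brain against stroke blood in place of 2771, and in stroke blood against sham blood *Asns* was at 0.10 and *Ppp1r15a* at 0.11. The causes of these shifts were not tested. Depth limits *Chac1* and *Trib3*.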

Other observations

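Family members of the 10 genes were measured in the same fits. Of 8 paralogues tested against stroke blood, *Trib1*, a pseudokinase related to *Trib3* that directs degradation of C/EBP factors, was called higher in the brain (129.1 ± 46.7 against 38.6 ± 6.69 CPM, SD, n = 3; log2 fold change 1.58 ± 0.26, adjusted p = 0.00213 by edgeR), and none was called lower. Among all genes 13.1% were called higher and 7.86% lower. *Trib2* was called lower in the brain against sham blood (0.451 ± 0.132 against 3.66 ± 2.17 CPM, log2 fold change -3.13 ± 0.56, adjusted p = 0.00889), but not against stroke blood (1.03 ± 1.29 CPM, log2 fold change -1.34 ± 0.94, adjusted p = 0.313). *Sesn1* and *Sesn3*, paralogues of *Sesn2*, were at 0.59 ± 0.29 (adjusted p = 0.153) and 0.63 ± 0.55 (adjusted p = 0.418) in the brain against stroke blood.

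Of 15 hypoxia genes, 14 were tested against stroke blood. In the brain 4 were called higher and 1 lower, where 13.1% and 7.86% of all genes were. The median log2 fold change of the list was 0.88. *Egln3*, an oxygen sensor, rose by 1.97 ± 0.39 (adjusted p = 0.00502 by edgeR), and *Ndrg1*, which hypoxia is known to induce, fell by 1.98 ± 0.18 (adjusted p = 9.65e-05). *Vegfa* and *Ero1l* stand both here and among the targets of ATF4, and *Vegfa* passed the filter on low counts only through the brain libraries.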
